A study of Mus musculus with 4 samples.

Results

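Expression of 10 genes was followed across the leukocytes of the mouse hindpaw: the CC chemokine ligands Ccl2, Ccl7, Ccl8, Ccl12, Ccl3, Ccl4, Ccl6 and Ccl9 and the receptors Ccr2 and Ccr1. They were listed by symbol, with earlier results of these data known, and all 10 were found among the 32285 genes of each library. The samples were 4 single-cell RNA-sequencing libraries of CD45+ leukocytes sorted from both hindpaws of perfused male mice. DB mice were Lepr db/db of the strain C57BLKS/J-Dock7m +/+ Leprdb, whose leptin receptor is defective and which develop obesity and diabetes, and WT mice were their Lepr WT/WT littermates. The groups were WT and DB at 12 weeks (12-week-WT and 12-week-DB) and the same genotypes at 21 weeks (21-week-WT, 21-week-DB). Each group was 1 library of paws pooled from several mice. The paws had been digested with collagenase before sorting. With 1 library per group, no difference between genotypes or ages was tested, and values between groups were compared as descriptions.

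CC chemokines are small secreted proteins that bind receptors on leukocytes and direct their movement. Ccl2, Ccl7, Ccl8 and Ccl12 are the monocyte chemoattractant proteins of the mouse. Ccl2, Ccl7 and Ccl12 act mainly through Ccr2, the receptor that brings inflammatory monocytes out of the bone marrow and into tissue, whereas mouse Ccl8 is also a ligand of Ccr8. Ccl3 and Ccl4 are the macrophage inflammatory proteins 1-alpha and 1-beta. Ccl3 acts on Ccr1 among other receptors. Ccl6 and Ccl9 are rodent chemokines that bind Ccr1.

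The ligand genes lay in 2 blocks of mouse chromosome 11 (GENCODE M21 on GRCm38). Ccl2 (chr11:82035571-82037453), Ccl7 (chr11:82045712-82047525), Ccl12 (chr11:82101845-82103400) and Ccl8 (chr11:82115185-82116799) were all on the plus strand within 81.2 kb. Ccl9 (chr11:83572919-83578636), Ccl6 (chr11:83587882-83593087) and Ccl3 (chr11:83647844-83649355) were on the minus strand and Ccl4 (chr11:83662584-83664683) on the plus strand, within 91.8 kb. The receptor genes Ccr1 (chr9:123962124-123968692, minus) and Ccr2 (chr9:124101950-124113557, plus) lay within 151.4 kb on chromosome 9. Ccl2 overlaps the gene Gm17268 and Ccl6 overlaps E230016K23Rik. Whether reads were counted by strand is not given in the sources used here, so reads of these overlapping genes may not have been told apart.

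The promoters of Ccl8 and Ccl12 are shown because these neighbouring genes were both read almost only in macrophage-like cells, and that of Ccl3 because this gene was read across many myeloid classes. Each line gives the 250 bases before the RefSeq start site (GRCm38.p6), 5′ to 3′ on the strand of the gene. Capitals mark TATAAA and the PU.1 core GAGGAA or its reverse complement.
Ccl8, chr11:82114935-82115184, plus strand: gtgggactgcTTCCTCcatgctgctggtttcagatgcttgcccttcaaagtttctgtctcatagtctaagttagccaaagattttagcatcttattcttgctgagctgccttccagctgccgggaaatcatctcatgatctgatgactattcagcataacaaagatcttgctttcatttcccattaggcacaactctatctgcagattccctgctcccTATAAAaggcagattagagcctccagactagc
Ccl12, chr11:82101595-82101844, plus strand: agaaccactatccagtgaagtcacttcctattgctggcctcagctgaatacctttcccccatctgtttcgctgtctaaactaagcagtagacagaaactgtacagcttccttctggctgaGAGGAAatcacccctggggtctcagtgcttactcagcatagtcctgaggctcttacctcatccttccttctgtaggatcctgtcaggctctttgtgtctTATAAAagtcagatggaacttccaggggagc
Ccl3, chr11:83649379-83649628, minus strand: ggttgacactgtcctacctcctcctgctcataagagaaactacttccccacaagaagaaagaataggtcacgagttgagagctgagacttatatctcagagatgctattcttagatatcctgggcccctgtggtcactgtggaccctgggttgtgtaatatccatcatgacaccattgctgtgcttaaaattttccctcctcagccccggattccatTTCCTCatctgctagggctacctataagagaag

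TATAAA began 32 bases before the start of Ccl8 and 31 bases before that of Ccl12, on the strand of the gene. Of 27025 mouse promoters of the same length, 2.22% held it on that strand between 40 and 20 bases before the start, and 13% held it anywhere on either strand. GAGGAA on either strand was found in 23.1% of promoters and in all 3 shown. The RefSeq table held promoters of 7 of the 10 genes and lacked those of Ccl2, Ccl7 and Ccl4. Those of Ccr2, Ccl6, Ccl9 and Ccr1 were held but are not shown. Among them GAGGAA was found for Ccr1 and not for Ccr2, Ccl6 or Ccl9. TATAAA was found there for Ccl9 alone, outside the window of 40 to 20 bases. These matches describe letters in a window and were not tested as binding sites.

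The libraries held 5998, 7463, 8208 and 9124 barcodes. Every set of 4 values follows this order, with the 12-week libraries before the 21-week libraries and WT before DB within each age. Filtering on a minimum of 200 genes and a maximum of 10% mitochondrial transcript molecules (UMIs) kept 27800 barcodes, with a median of 5355 to 8001 UMIs per library. Within the 21-week libraries 146 barcode sequences were shared, which was 2.01% of the smaller library, against 5 to 38 in the other pairs. Cell classes were assigned from marker genes that do not include the 10 genes. C1qa, a complement gene of macrophages, had a UMI in 94.2% of macrophage-like barcodes and in 14.9% of other classes, and the mast cell chymase Cma1 in 99.9% of mast cell-like barcodes. The 7162 macrophage-like barcodes numbered 1765, 2111, 1725 and 1561, and the mast cell-like barcodes 335, 296, 224 and 1268. In 21-week-WT, 3 clusters with 937 of the 1725 macrophage-like barcodes stayed unnamed, because their 10 leading genes held a marker of another class (Sparc, Thbs1 or Lst1) and none of the 8 macrophage markers. All 3 scored highest for macrophages, and clusters that lacked the 8 markers among their leading genes but held none of another class kept the name in every library.

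The 10 genes were spread unequally over the cell classes. Levels are given in CPM, the UMIs of a gene per 1000000 UMIs of the class, and because only the transcripts' 3′ ends were counted, levels were compared between classes for a gene and not between genes. Macrophage-like barcodes held 96.5% of all Ccl8 UMIs, 94.9% of Ccl12, 73.4% of Ccr1, 64.7% of Ccl6, 62.4% of Ccl2 and 59.6% of Ccl9. Ccl7 had 58.0% of its UMIs in mast cell-like barcodes and 31.8% in macrophage-like ones over the 4 libraries together. By library the mast cell-like share was 17.7%, 37.4%, 24.6% and 80.2% and the macrophage-like share 68.7%, 54.7%, 58.8% and 12.1%, so the pooled order rests on 21-week-DB. Ccl3 and Ccl4 were spread over more classes, with 42.1% and 44.5% of UMIs in macrophage-like barcodes. Ccr2 was the most widely read, with 27.4% in macrophage-like cells, 21.3% in cDC2-like cells, which are type 2 conventional dendritic cells, and 10.7% in ILC2-like cells, the type 2 innate lymphoid cells.

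**Figure D1:**
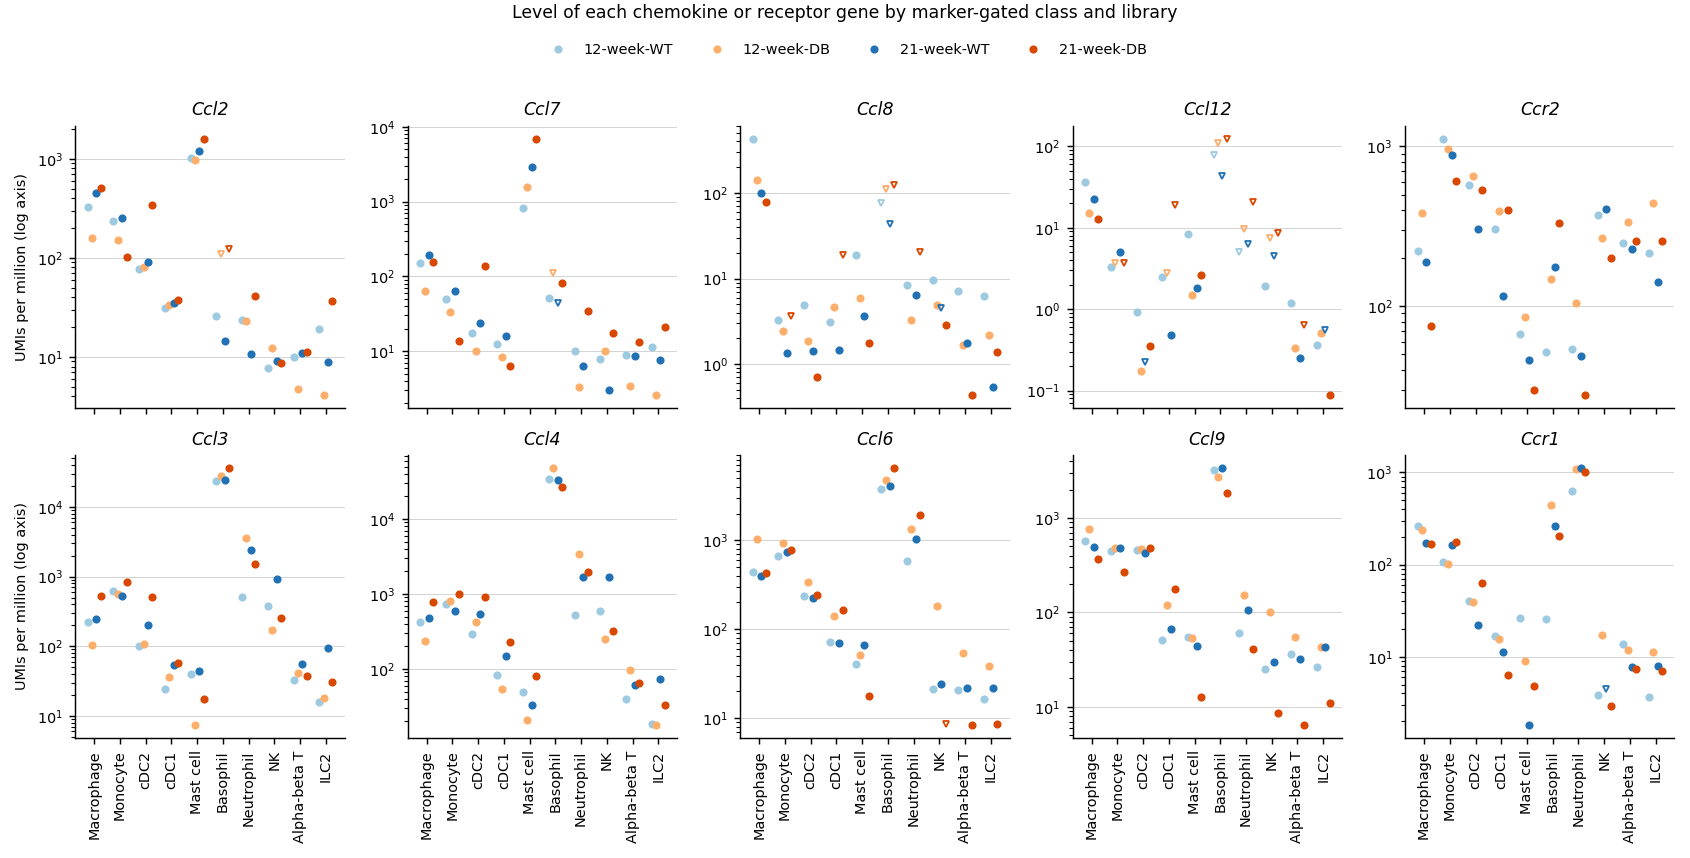
Level of each of the 10 genes (CPM, log axis) in 10 cell classes, with 1 point per library, and open triangles at the limit of 3 counts where no UMI was read. Ccl8 and Ccl12 stood highest in macrophage-like cells in every library, and Ccl2 and Ccl7 in mast cell-like cells.

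Ccl2, the main ligand of Ccr2, was read in macrophage-like cells at 330, 158, 450 and 513 CPM. The level was lowest in 12-week-DB, where it was 2.09-fold below 12-week-WT (DB/WT ratio 0.479, 95% counting interval 0.459 to 0.499). At 21 weeks the DB/WT ratio was 1.14. Barcodes with a Ccl2 UMI made up 41.5%, 23.3%, 33.0% and 29.2% of macrophage-like cells, against 2.6% to 6.1% of alpha-beta T-like cells, which should lack the gene. The median depth was 8899, 10390, 10350 and 8937 UMIs in the macrophage-like barcodes and 4549 to 5288 in the T-like ones. After each barcode was thinned to 2000 UMIs, the macrophage-like shares were 24.0%, 10.5%, 20.3% and 18.9%, in the same order of libraries.

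Ccl7, which shares Ccr2 with Ccl2, was read at 151, 64.3, 196 and 156 CPM in macrophage-like cells. Its pattern followed that of Ccl2 at 12 weeks, 2.35-fold lower in DB. Macrophage-like barcodes with a Ccl2 UMI also held Ccl7 more often, at 48.1%, 38.9%, 45.9% and 39.0%, than those without, at 13.4%, 6.24%, 10.3% and 8.60%. Barcodes with a UMI of either gene tend to be deeper, so these shares are a description.

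Ccl8 separated the 12-week-WT library from the rest. It was read at 429, 142, 99.2 and 78.4 CPM in macrophage-like cells, with a UMI in 23.9%, 6.68%, 7.25% and 5.38% of barcodes. The level was 3.03-fold lower in DB than in WT at 12 weeks (ratio 0.330, interval 0.317 to 0.344) and 4.33-fold lower at 21 than at 12 weeks in WT. Few cells carried it. In 12-week-WT the 10% of macrophage-like barcodes with most Ccl8 UMIs held 92.7% of them. That share was 90.9% for Ccl4, 75.5% for Ccl2 and 41.0% for Ccl9 in the same library. In the other libraries under 10% of barcodes held any Ccl8, so such a share is fixed there. In 12-week-DB 1 barcode held 466 Ccl8 UMIs.

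Ccl12, the weakest of the chemoattractant genes in UMIs, had 36.4, 15.4, 22.5 and 12.8 CPM in macrophage-like cells and was lower in DB at both ages, by 2.37-fold and 1.76-fold. Macrophage-like barcodes with a Ccl8 UMI held Ccl12 in 27.5%, 31.9%, 28.8% and 32.1% of cases, against 2.03% to 5.14% of those without. In neutrophil-like cells no Ccl12 UMI was read among 1519087, which allows up to 1.97 CPM over the 4 libraries, so the macrophage-like level of 21.6 CPM was at least 10.9-fold higher.

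Ccr2, the receptor for Ccl2, Ccl7 and Ccl12, was highest in monocyte-like cells, at 1116, 960, 888 and 604 CPM, with a UMI in 79.3% to 89.9% of barcodes. cDC2-like cells had 577, 652, 306 and 534 CPM and stood next in 3 libraries, while in 21-week-WT natural killer-like cells were above them at 403 CPM. In macrophage-like cells it had 222, 381, 188 and 74.9 CPM, so that DB stood 1.71-fold above WT at 12 weeks (interval 1.65 to 1.78) and 2.51-fold below it at 21 weeks (ratio 0.398, interval 0.372 to 0.426). The 21-week-DB value was 5.08-fold below that of 12-week-DB. Ccr2 was also read in lymphocytes, at 249, 334, 228 and 256 CPM in alpha-beta T-like cells and 215, 444, 142 and 258 CPM in ILC2-like cells.

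Ccr2 differed between subsets of macrophage-like cells, and the number of barcodes in these subsets differed between libraries. Cells without a Lyve1 UMI and with high H2-Ab1, an MHC class II gene, numbered 436, 604, 621 and 169, and had 677, 837, 459 and 404 CPM of Ccr2. Cells with Lyve1, a hyaluronan receptor of perivascular macrophages, and low H2-Ab1 numbered 928, 902, 703 and 999 and had 27.2, 96.0, 15.2 and 23.2 CPM. At 12 weeks DB stood above WT in both subsets, and in the second the values lay further apart than in the class as a whole. At 21 weeks the gap was smaller than in the class in the first subset, and in the second it had the opposite direction. The part of the subset numbers in the class level was not tested. Ccl8 was 384, 198, 131 and 63.5 CPM in the Lyve1+ MHCII-low cells. In cells with neither Lyve1 nor high H2-Ab1 it was 695, 82.0, 290 and 182 CPM, with 12-week-DB lowest, so the order of libraries was not the same in every subset.

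Ccl3 and Ccl4, the macrophage inflammatory proteins, changed side between the ages. Ccl3 in macrophage-like cells was 219, 106, 243 and 522 CPM, 2.07-fold lower in DB at 12 weeks and 2.15-fold higher in DB at 21 weeks (interval 2.07 to 2.23). Ccl4 was 420, 237, 472 and 771 CPM, 1.77-fold lower and then 1.63-fold higher (interval 1.59 to 1.68). These intervals cover counting error only, and few barcodes carried much Ccl4. At 21 weeks barcodes with 5 or more Ccl4 UMIs made up 12.75% of the class in WT and 13.58% in DB. In 21-week-DB 1 barcode held 515 of the 11697 Ccl4 UMIs. For Ccl3 the share with 5 or more UMIs was 13.91% in WT and 19.54% in DB. In DB, Ccl3 was 4.94-fold and Ccl4 3.25-fold higher at 21 than at 12 weeks. A Ccl3 UMI went with a Ccl4 UMI in 45.7%, 39.5%, 51.3% and 45.1% of macrophage-like barcodes, against 22.3%, 12.6%, 18.1% and 12.8% where Ccl3 was not read.

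The Ccl3 and Ccl4 genes were read most densely in 28 basophil-like barcodes (8, 5, 11 and 4), at 23605 to 35820 CPM of Ccl3 and 26700 to 47524 CPM of Ccl4. These held the basophil markers Cd200r3 and Gata2 in 96.4% of barcodes and Mcpt8 in 82.1%, but Prss34 in 3.57%, and no cluster carried the class name. Neutrophil-like cells (115, 90, 124 and 39 barcodes) had 512, 3529, 2438 and 1490 CPM of Ccl3 and 527, 3391, 1680 and 1979 CPM of Ccl4. The 12-week-WT library was the low one, with ratios of 6.89 and 6.43 for DB/WT at 12 weeks. Few barcodes carried some of these counts. Ccl9 had 36, 47, 50 and 6 UMIs in this class, of which 32 in 12-week-DB and 5 in 21-week-DB came from 1 barcode each. Ccr2 had 32 UMIs in each 12-week library, of which 22 in WT and 16 in DB came from 1 barcode. In this class 6 of the 10 genes were at least 1.5-fold higher in DB at 12 weeks (Ccl3, Ccl4, Ccl6, Ccl9, Ccr1, Ccr2) and none lower, beside 14.0% higher and 18.8% lower of all genes measured. At 21 weeks 1 was higher (Ccl6) and 2 were lower (Ccl3, Ccl9), beside 14.2% and 25.7%. With classes taken from clusters the 12-week log2 DB/WT fell from 2.78 to 1.26 for Ccl3, and turned to -0.12 for Ccr2 and, at 21 weeks, to 0.50 for Ccl9. Natural killer-like cells also read both genes, with Ccl4 at 596, 248, 1665 and 318 CPM.

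Ccl6 marked the 12-week-DB library. In macrophage-like cells it was 436, 1035, 399 and 425 CPM, 2.37-fold higher in DB than in WT at 12 weeks (interval 2.32 to 2.44) and with a ratio of 1.07 at 21 weeks. It was read in most macrophage-like cells, with a UMI in 66.3%, 81.2%, 67.4% and 64.2% of barcodes. Alpha-beta T-like cells, which hold little of it, were also highest in 12-week-DB, at 20.7, 53.4, 22.0 and 8.4 CPM. So were ILC2-like cells, at 16.5, 38.6, 21.9 and 8.6 CPM. At 21 weeks both classes stood lower in DB than in WT, unlike macrophage-like cells. Whether free RNA has a part in those low levels was not tested. Ccl9 was 578, 762, 497 and 365 CPM in macrophage-like cells, and neither DB/WT ratio, 1.32 and 0.734, reached 1.5-fold.

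Ccr1 is the receptor for Ccl3, Ccl6 and Ccl9. Its level in macrophage-like cells was 260, 239, 171 and 167 CPM, with DB/WT ratios of 0.920 and 0.978, and the 12-week libraries stood above the 21-week ones in both genotypes. Neutrophil-like cells were the highest class for Ccr1 in every library, at 636, 1080, 1112 and 1007 CPM.

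In macrophage-like cells as a whole, 2 of the 10 genes were at least 1.5-fold higher in DB at 12 weeks (Ccr2, Ccl6) and 6 at least 1.5-fold lower (Ccl2, Ccl7, Ccl8, Ccl12, Ccl3, Ccl4), beside 1.92% higher and 5.43% lower among 6519 genes measured. The median log2 DB/WT of the 10 genes was -0.94, against 0.01 over all genes. At 21 weeks 2 were higher (Ccl3, Ccl4) and 2 lower (Ccl12, Ccr2), beside 8.53% and 6.89%. From 12 to 21 weeks in WT none was higher and 3 were lower (Ccl8, Ccl12, Ccr1), beside 1.73% and 6.56%. In DB 4 were higher with age (Ccl2, Ccl7, Ccl3, Ccl4) and 4 lower (Ccl8, Ccr2, Ccl6, Ccl9), beside 6.28% and 11.7%. The 12-week files name Cell Ranger 5.0.0 and the 21-week files 6.0.0, so age and counting software cannot be told apart.

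Without the 3 unnamed clusters the 21-week-WT levels in macrophage-like cells were 173 CPM for Ccl2, 90.6 for Ccl7, 185 for Ccl8, 28.8 for Ccl12 and 236 for Ccr2. They were 172 CPM for Ccl3, 226 for Ccl4, 478 for Ccl6, 557 for Ccl9 and 126 for Ccr1. These clusters include the one densest in Ccl2, Ccl7, Ccl3 and Ccl4 in that library, while its counterpart in 21-week-DB kept its name and stays in the class. Leaving them out is therefore one-sided, and no direction between libraries is read from these levels. The 21-week ratios of the class rest on keeping them. Against the reduced 21-week-WT class the DB/WT ratio would be 2.96 for Ccl2, 1.72 for Ccl7, 0.423 for Ccl8 and 0.443 for Ccl12. It would be 0.318 for Ccr2, 3.03 for Ccl3 and 3.41 for Ccl4. For Ccl6, Ccl9 and Ccr1 it would be 0.889, 0.654 and 1.33. Past 1.5-fold, 4 genes would be higher and 4 lower, in place of 2 and 2.

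**Figure D2:**
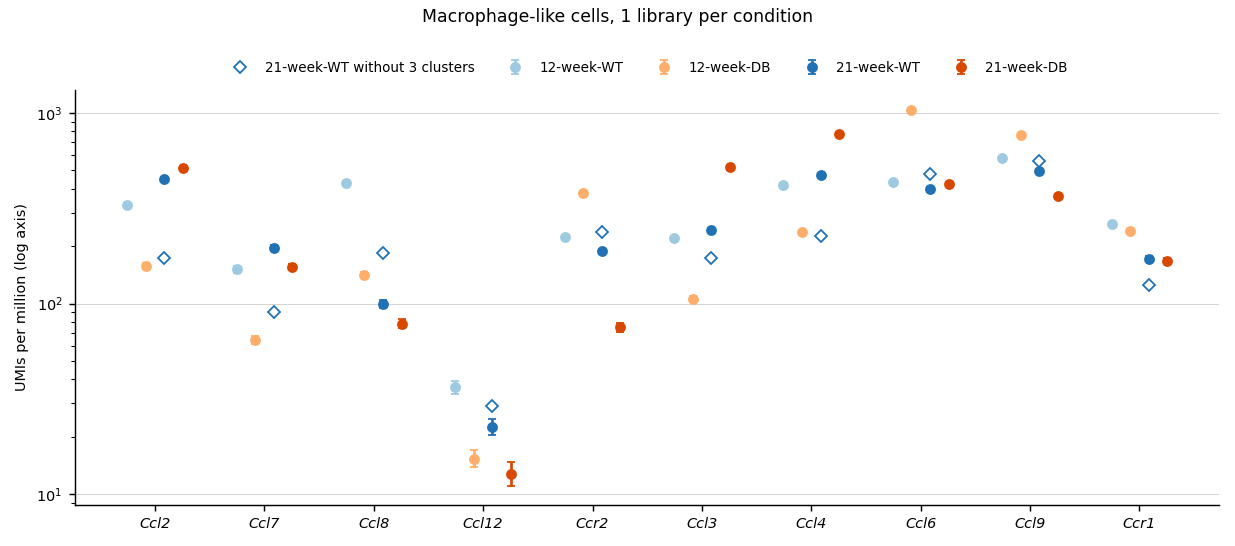
Level of each gene in macrophage-like cells (CPM) in the 4 libraries, with bars for the 95% Poisson interval, which covers counting error only. The open diamond is 21-week-WT without 3 unnamed clusters, where Ccl2 stood at 173 in place of 450, a one-sided removal from which no direction is read.

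Early response genes, which rise during tissue digestion, moved beside these genes. The summed level of 12 such genes (Fos, Jun, Egr1, Hspa1a and others) in macrophage-like cells was 8234, 5648, 10551 and 9725 CPM, lowest in 12-week-DB like Ccl2, Ccl7, Ccl3 and Ccl4. Of the 12, none was higher and 7 were at least 1.5-fold lower in DB at 12 weeks, beside 1.92% and 5.43% of all genes. None was past the limit at 21 weeks, beside 8.53% higher and 6.89% lower. In DB 10 were higher at 21 than at 12 weeks, beside 6.28%. Among 11 genes upstream of chemokine expression, Tnf was 205, 135, 365 and 489 CPM and Il1b 59.6, 48.1, 356 and 393 CPM, both lowest in 12-week-DB. Their part in the levels of the 10 genes was not tested.

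The transcripts were uneven among clusters of macrophage-like cells. In each library Ccl2, Ccl7, Ccl3 and Ccl4 were densest in 1 cluster led by Cxcl chemokine genes or Mmp12, of 88, 195, 315 and 330 barcodes. Ccl2 in these was 1341, 1082, 1729 and 1932 CPM and Ccl7 477, 349, 725 and 523 CPM. Ccl3 was 950, 586, 694 and 2026 CPM and Ccl4 3102, 2023, 1764 and 2967 CPM. The 21-week-WT member of this set is among the 3 unnamed clusters. Ccl8 was densest in clusters led by Ednrb with C4b or Pf4, at 2214 CPM in 388 barcodes of 12-week-WT, 590 in 405 of 12-week-DB and 592 in 228 of 21-week-WT, where Ccl12 was 131, 51 and 40 CPM. No such cluster was found in 21-week-DB, and there Ccl8 was densest, at 314 CPM, in the same cluster as Ccl2. Clusters led by Vsig4 had Ccr1 at 397, 415, 246 and 233 CPM, with Ccr2 at 9 to 25 and Ccl8 at 7 to 17 CPM. Ccr2 was densest in a 12-week-DB cluster of 293 barcodes led by the haemoglobin genes Hba-a2 and Hbb-bs, at 1023 CPM. In 113 barcodes of 21-week-WT led by Gm26917 it was 861 CPM, and the highest macrophage cluster of 21-week-DB had 55.4 CPM. That lies below the 74.9 CPM of the whole macrophage-like class of 21-week-DB. Macrophage-like barcodes in clusters that scored highest for another class are not among the clusters described here. The 10 genes were left out when cells were grouped, and these values are a description of cells grouped on the same counts.

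**Figure D3:**
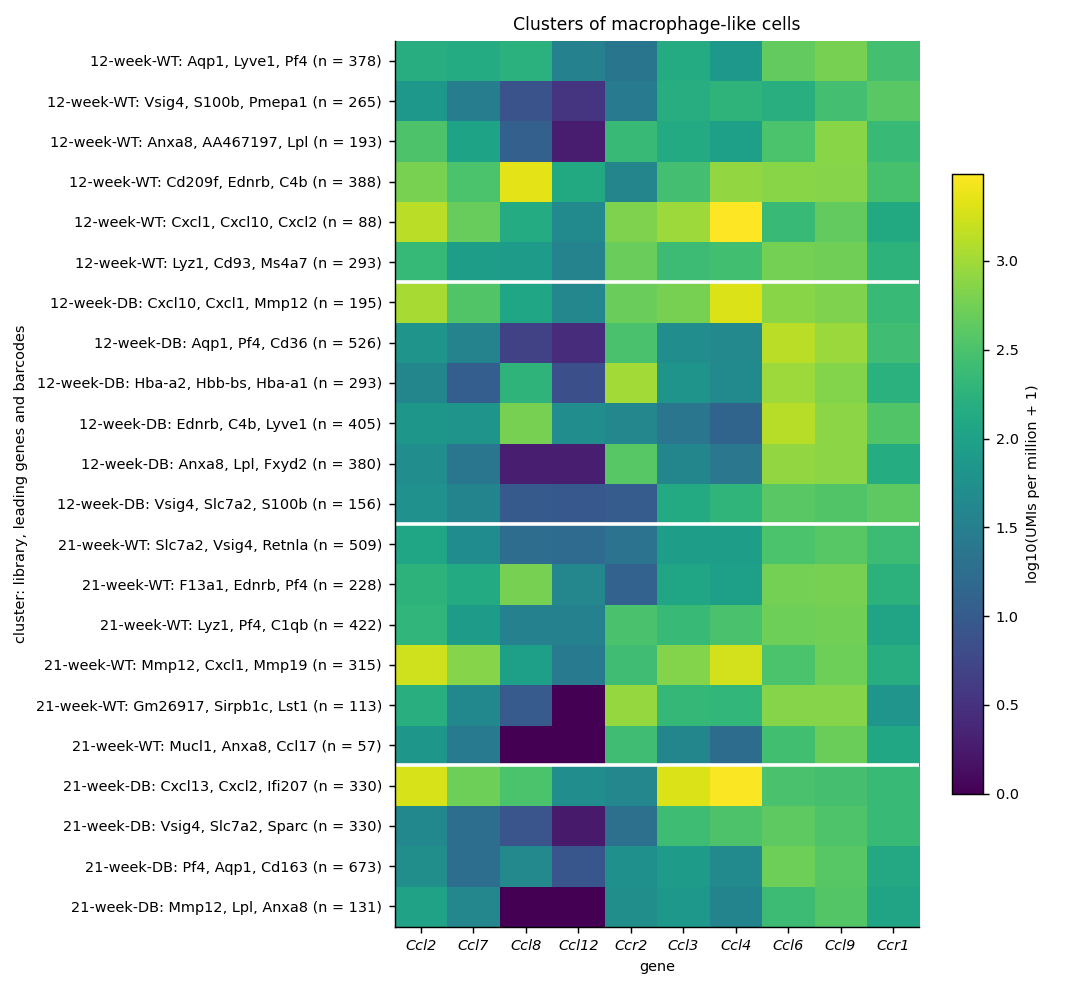
Level of the 10 genes, as log10 of CPM plus 1, in the 22 clusters of macrophage-like cells, each cluster named by library and leading genes. Ccl2 and Ccl4 were highest in clusters led by Cxcl genes or Mmp12, and Ccl8 in those with Ednrb, except in 21-week-DB.

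Among whole classes, mast cell-like cells were the densest source of Ccl7 and Ccl2. Ccl7 was 825, 1546, 2924 and 6915 CPM, with counting intervals of 765 to 889 and 6807 to 7024 for the lowest and highest. The 4 intervals did not overlap, but they cover counting error only and not the spread between cells or mice. The 10% of barcodes with most Ccl7 UMIs held 60.6%, 65.1%, 54.4% and 52.2% of them. DB stood above WT at both ages, by 1.87-fold (1.70 to 2.07) and 2.36-fold (2.25 to 2.49), and the 21-week libraries above the 12-week ones by 3.54-fold in WT and 4.47-fold in DB. Ccl2 varied less, at 1016, 981, 1186 and 1591 CPM. The macrophage-like cluster densest in Ccl2 stood above this class in each library, at 1341, 1082, 1729 and 1932 CPM. Ccl4 was read in 41, 14, 18 and 183 UMIs, and 117 of the 183 in 21-week-DB came from 1 barcode, so its calls there rest largely on that barcode. Of 6 members measured in this class at 12 weeks, 1 was higher in DB (Ccl7) and 1 lower (Ccl4), and of 7 at 21 weeks 2 were higher (Ccl7, Ccl4) and 4 lower (Ccr2, Ccl3, Ccl6, Ccl9), beside 5.6% higher and 7.11% lower, and 13.9% and 12.8%, of all genes in this class. With age, 2 were higher in WT (Ccl7, Ccl6) and none lower, beside 8.59% and 18.1%, and 3 were higher in DB (Ccl2, Ccl7, Ccl4) and 3 lower (Ccr2, Ccl6, Ccl9), beside 11.6% and 20%.

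The share of mast cell-like barcodes with a Ccl7 UMI was 44.8%, 47.3%, 66.5% and 69.6%, at median depths of 2071, 1623, 1807 and 1437 UMIs. Thinned to 1000 UMIs per barcode, with 48, 60, 34 and 344 shallower barcodes left out, it was 31.7%, 41.5%, 59.5% and 68.6%. Alpha-beta T-like cells had Ccl7 in 5.7%, 2.0%, 5.3% and 7.0% of barcodes. Ccl2 had a UMI in 70.1%, 60.5%, 64.7% and 62.4% of mast cell-like barcodes. The summed level of the mast cell markers fell across the same libraries, at 67051, 58845, 49347 and 35754 CPM, and its part in the Ccl7 levels was not tested.

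In 21-week-DB the mast cell-like barcodes fell mainly into 2 clusters. In the 616 barcodes led by Csf2rb2 and Gnai1, with Il6 and Hdc among the leading genes, Ccl7 was 10265 CPM and was read in 88.3% of barcodes. In the 643 led by the proteases Ctsg and Cma1 it was 3033 CPM, with a UMI in 51.9%. Ccl2 was 1781 and 1315 CPM in these clusters. Across mast cell-like cells Il6, an inflammatory cytokine, was 76.4, 193, 135 and 467 CPM, and Ccrl2, an atypical chemokine receptor, 91.9, 127, 192 and 410 CPM.

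**Figure D4:**
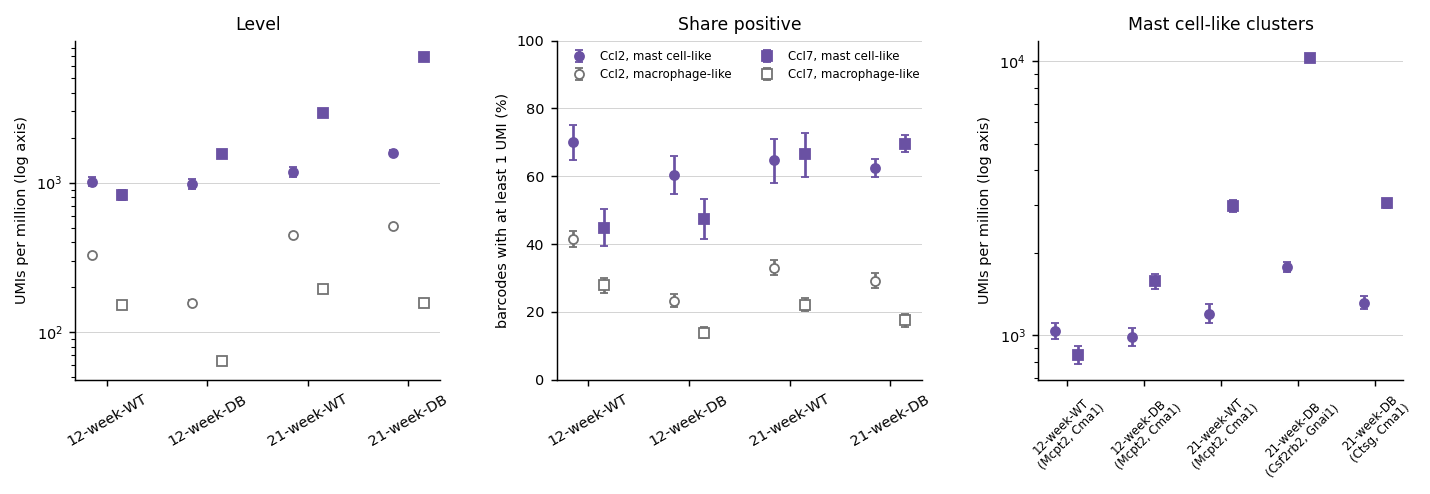
Ccl2 and Ccl7 in mast cell-like cells: level by library (CPM, 95% Poisson bars), share of barcodes with a UMI (percent), and level by cluster. Ccl7 ran from 825 in 12-week-WT to 6915 in 21-week-DB, while Ccl2 lay between 981 and 1591.

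Dendritic cells of the cDC2-like class differed at 21 weeks. Ccl2 was 76.8, 80.8, 91.3 and 343 CPM, so that 21-week-DB stood 3.76-fold above 21-week-WT. Ccl7 was 17.3, 10.1, 23.6 and 139 CPM, and Ccl3 101, 107, 201 and 503 CPM. In all, 6 of the 10 genes were at least 1.5-fold higher in DB at 21 weeks (Ccl2, Ccl7, Ccl3, Ccl4, Ccr2, Ccr1) and none lower, beside 10.6% higher and 6.95% lower of all genes, and none was past the limit in either direction at 12 weeks, beside 1.35% and 1.98%. Summed macrophage markers in these cells were 891, 910, 685 and 884 CPM and mast cell markers 27.9, 17, 31.7 and 31.5 CPM. The class held 571, 461, 930 and 213 barcodes. With classes taken from clusters the log2 DB/WT at 21 weeks rose from 1.91 to 4.95 for Ccl2 and from 2.56 to 4.97 for Ccl7. In that setting a 21-week-WT cluster of 424 barcodes led by Ccl22, which scored highest for cDC2, stayed unnamed. A 21-week-DB cluster of 402 barcodes, with 52.0% gated as cDC2-like, kept the name. The change of class is therefore one-sided, and the rise is not read as a stronger difference.

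Monocyte-like cells (129, 112, 325 and 87 barcodes) kept a high Ccr2 level in every library, as given above, and had Ccl3 at 623, 553, 526 and 838 CPM. At 12 weeks none of the 10 genes was past 1.5-fold higher in DB and 2 were lower (Ccl2, Ccl7), beside 9.75% and 8.13% of all genes. Both directions turned under an alternative, to a log2 ratio of 0.090 for Ccl2 with barcodes weighted equally and to 0.10 for Ccl7 with classes taken from clusters. At 21 weeks 2 were higher (Ccl3, Ccl4) and 3 lower (Ccl2, Ccl7, Ccl9), beside 10.9% and 16.9%. Summed neutrophil markers in this class were 2025 CPM in 21-week-DB and 221 to 349 CPM in the others, and their part in the 21-week values was not tested.

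Classes could be tested against each other, because each library held both cell classes. edgeR's quasi-likelihood test with library as a block compared the summed UMIs of macrophage-like cells with those of each other myeloid class in 4 libraries, with p-values adjusted by Benjamini-Hochberg over all genes. Against monocyte-like cells 3 of the 10 genes were higher (Ccl7, Ccl8, Ccl12) and 4 lower (Ccr2, Ccl3, Ccl4, Ccl6), beside 20% higher and 19.2% lower of 12078 genes. Ccl8 differed by 6.36 ± 0.26 on the log2 scale (SE, adjusted p = 1.3e-08) and Ccr2 by -2.50 ± 0.23 (adjusted p = 4.8e-06). Ccl2, at 0.62 ± 0.26, had an adjusted p of 0.083. The Ccl7 call was lost with classes taken from clusters (0.40 on the log2 scale, edgeR adjusted p = 0.34). Without scaling beyond the library total the split over all genes was 3892 higher and 1549 lower in place of 2420 and 2323, and 6 of the 10 genes were then higher.

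Against cDC2-like cells 6 genes were higher in macrophage-like cells (Ccl2, Ccl7, Ccl8, Ccl12, Ccl6, Ccr1) and Ccr2 lower, at -1.59 ± 0.33, beside 24.7% and 23.5% of all genes. The Ccl7 call was lost when 12-week-WT, 12-week-DB or 21-week-WT was left out, with adjusted p from 0.054 to 0.056 in edgeR. Both it and the Ccl2 call were also lost with classes taken from clusters (edgeR adjusted p = 0.099 and 0.16). Against mast cell-like cells 8 genes were higher and 2 lower, beside 29.0% and 24.1%. The 2 that were lower were Ccl2, at -1.83 ± 0.19 (adjusted p = 1.2e-06), and Ccl7, at -4.13 ± 0.39 (adjusted p = 4.2e-07).

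Against neutrophil-like cells 6 genes were higher (Ccl2, Ccl7, Ccl8, Ccl12, Ccr2, Ccl9) and 4 lower (Ccl3, Ccl4, Ccl6, Ccr1), beside 21.4% and 17.5%. Ccr1 differed by -2.69 ± 0.26 and Ccl3 by -3.23 ± 0.33 on the log2 scale. Without scaling beyond the library total, cDC2-like cells gave 4802 genes higher and 2030 lower in place of 3128 and 2983, and neutrophil-like cells 4779 and 1431 in place of 2512 and 2050.

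Within macrophage-like cells the receptors Ccr1 and Ccr2 differed in opposite directions across the Lyve1 and MHC class II splits. In cells with a Lyve1 UMI, Ccr1 was higher, by 0.68 ± 0.11 (log2, SE, edgeR adjusted p = 0.0032), and Ccr2, Ccl4, Ccl3, Ccl2 and Ccl7 were lower, beside 13.6% higher and 12.8% lower of 12245 genes. Ccr2 differed most, by -2.53 ± 0.21, and Ccl8 did not pass, at 0.17 ± 0.42 (adjusted p = 0.82). In cells with high H2-Ab1, Ccr2 was higher by 3.47 ± 0.19 (adjusted p = 2.5e-06), with Ccl4, Ccl2, Ccl3, Ccl9 and Ccl6 also higher and Ccr1 lower, at -0.53 ± 0.06, beside 15.2% and 15.3% of 12150 genes. The Ccl6 call (adjusted p = 0.043) was lost without 12-week-WT, 12-week-DB or 21-week-WT. All 12 early response genes were lower in Lyve1+ cells and 10 of 12 higher in MHCII-high cells by the same test, and their part in the chemokine differences was not tested. Without scaling beyond the library total the splits were 2338 higher and 1168 lower for Lyve1, in place of 1671 and 1567, and 1337 and 2830 for MHC class II, in place of 1841 and 1855.

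**Figure D5:**
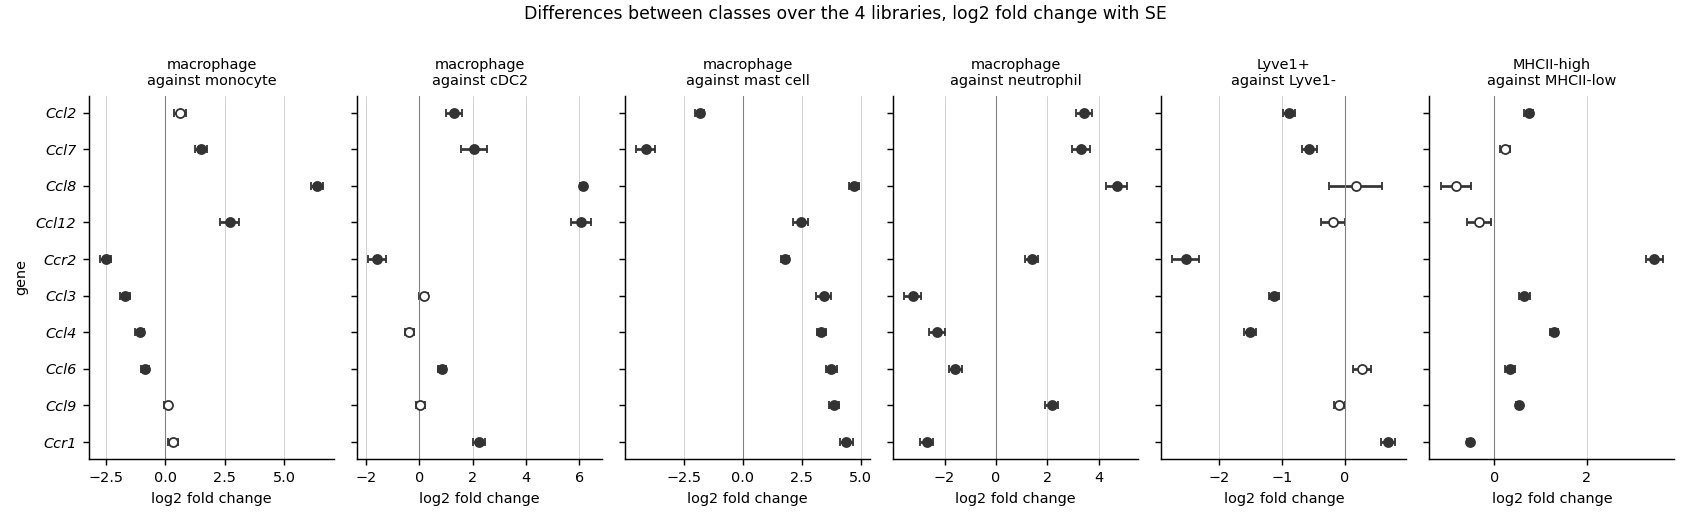
Log2 difference with SE for each gene in 6 edgeR comparisons, with filled points for adjusted p under 0.05 and open points otherwise. Ccl12 against neutrophil-like cells is not drawn because no UMI was read there, and Ccl2 and Ccl7 lie below 0 against mast cell-like cells.

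The remaining chemokine and receptor genes were followed as a list of 24. In macrophage-like cells 6 of them were measured at 12 weeks. None was at least 1.5-fold higher in DB at 12 weeks and 3 were lower (Ccl5, Ccl17, Cx3cr1), beside 1.92% higher and 5.43% lower of all genes. Cx3cr1, the fractalkine receptor of resident macrophages, was 390, 185, 265 and 293 CPM, lowest in 12-week-DB.

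Over 54 sums of class and library, the genes whose log2 level followed a member most closely were named by Pearson's r across 9896 genes, as a description of sums that share libraries. Ccl2 was most like Ccl7 (r = 0.854) and then Mitf (r = 0.838), and Ccl3 most like Ccl4 (r = 0.888). Ccl8 was most like Pf4 (r = 0.839), followed by Stab1, Cbr2, Lyve1 and Vsig4. This likeness is between sums of whole classes. Within macrophage-like cells Ccl8 did not pass between cells with and without Lyve1, and clusters led by Vsig4 held little of it, as given above. Ccl6 followed Cd300ld (r = 0.919) and Lyz2 (r = 0.898), and Ccr2 followed Ciao2a (r = 0.766), its highest value.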

How the data were processed

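The authors prepared 10x Genomics 3′ v3 libraries and deposited raw UMI counts per gene and barcode. The submitters' processing notes name Cell Ranger 5.0.0 and mm10 for all 4 libraries, whereas the file headers name 5.0.0 for the 12-week and 6.0.0 for the 21-week libraries. The ambient RNA correction and doublet removal of the study are not in these counts. Total counts ranged from 47851794 to 69626521 UMIs per library.

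Barcodes were filtered on a minimum of 200 genes and a maximum of 10% mitochondrial UMIs. A class was given where the mean scaled marker score was at least 0.2, at least 3 markers were read and the lead over the next class was at least 0.05. Ctla2a was dropped from the Langerhans markers after its values were seen. Barcodes positive for several lineages were left unassigned only where that lead was under 0.05, so mixed barcodes may remain in the classes. No doublet caller was applied to the main values (Scrublet's own threshold marked 55, 74, 0 and 2 barcodes). An alternative left out the 222, 343, 423 and 606 barcodes with the highest Scrublet scores. Clusters came from Leiden grouping at resolution 1.0 on 20 components of 2000 variable genes, without the 10 genes.

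Levels carry exact Poisson, ratios exact conditional binomial and shares Clopper-Pearson 95% intervals, all for counting error only. A ratio counted as past the limit at 1.5-fold, where the higher value was 20 CPM or more and the pair held 50 UMIs or more. Classes were tested with edgeR 4.0.16 in R 4.3.3 (glmQLFTest, library as block), checked on simulated counts, with an adjusted p under 0.05. Mice pooled in a library are not separate replicates. The members and gene lists were chosen with earlier results of these data known. All 10 members are named, and genes of the fixed lists where past the limit, except that some results of the chemokine list are not reported here. Alternatives were DESeq2 1.42.0, other scalings, filters, gates, clusters, thinning, the H2-Ab1 limit (2 on the log-normalised scale) and leaving out each library.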

Additional observations from a re-analysis of the deposited data

Results flagged for a closer look

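The direction of DB against WT differed between 12 and 21 weeks, past 1.5-fold on both sides, for 7 values. None of these differences was tested, since each group was 1 library. In macrophage-like cells the log2 DB/WT value was 0.78 at 12 weeks and -1.33 at 21 weeks for Ccr2, -1.05 and 1.1 for Ccl3, and -0.83 and 0.71 for Ccl4. In neutrophil-like cells it was 2.78 and -0.71 for Ccl3 and 1.34 and -1.36 for Ccl9. The Ccl9 values came from 36 and 47 UMIs at 12 weeks and 50 and 6 at 21 weeks, in WT and DB, and 32 of the 47 and 5 of the 6 were in 1 barcode each. In mast cell-like cells Ccl4 had -1.23 and 1.3, from 41 and 14 UMIs at 12 weeks and 18 and 183 at 21 weeks, in WT and DB. Of the 183 UMIs, 117 were in 1 barcode. Over all kept barcodes Ccl7 had -0.75 and 1.9. Mast cell-like barcodes, the densest source of Ccl7, numbered 335 and 296 at 12 weeks and 224 and 1268 at 21 weeks, in WT and DB, and their part in that value was not tested.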

How the results depend on the processing

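Genotypes and ages could not be paired, because their ratios come from no test and each group held 1 replicate number. The class tests were paired by library, which was their block. Of 1483 alternative values for the members' ratios, 1074 kept their value within the spread used, 388 moved and 21 reversed. Of 550 alternative class tests of single members, 513 kept their direction and side of the threshold, 23 lost and 14 gained a call. The causes were not tested. Alternatives with shared barcodes or 3 clusters of 1 library left out, clusters named by highest score alone and thinning to 1000 UMIs were chosen after seeing the data. Shallow classes, above all mast cell-like and neutrophil-like cells, limit the precision of the shares.

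In macrophage-like cells at 21 weeks, 1 member was at least 1.5-fold higher in DB with at most 5% mitochondrial UMIs, and 1 was lower with clusters named by highest score alone. With classes by cluster, 5 were lower at 21 than at 12 weeks in WT. The share of positive macrophage-like cells was higher in DB at 21 weeks for 1 member, for 4 with classes by cluster and for 3 with thinning to 2000 or to 1000 UMIs.

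Reversed log2 ratios with classes by cluster were 0.10 for Ccl7 in monocyte-like cells at 12 weeks, -0.22 for Ccl3 and -0.66 for Ccl4 in cDC2-like cells between ages in WT, and 0.20 for Ccl4 in mast cell-like cells at 12 weeks. In neutrophil-like cells they were -0.12 for Ccr2 at 12 weeks and 0.50 for Ccl9 at 21 weeks, and between ages in WT -0.17 for Ccl3, -0.95 for Ccl4, -0.11 for Ccl6 and -1.71 for Ccl9. With barcodes weighted equally Ccl2 in monocyte-like cells at 12 weeks was 0.090 and Ccl9 in neutrophil-like cells between ages in WT -0.027. With the stricter gate Ccl2 in monocyte-like cells between ages in DB was 0.26.

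Without scaling beyond the library total, genes higher in macrophage-like cells were 3892 against monocyte-like cells (6 members), 4802 against cDC2-like and 4779 against neutrophil-like cells, and genes lower in MHCII-high cells 2830. Without a filter on low counts, 5 members were higher against monocyte-like cells, 2 higher in Lyve1+ cells and 3 lower in MHCII-high cells. With no library block, 1906 genes were lower against cDC2-like cells, 449 were higher and 264 lower in Lyve1+ cells (1 member lower), and 458 were higher and 560 lower in MHCII-high cells (1 member higher, 0 lower). With barcodes thinned to 2000 UMIs, 820 genes were higher and 832 lower in Lyve1+ cells, with 2 members higher. With classes by cluster 2 members were lower against cDC2-like cells, and with the H2-Ab1 limit at 2.5, 2 were lower in MHCII-high cells.

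With each library left out in turn, genes higher in Lyve1+ cells numbered 1023 to 1478, with 1023 without 12-week-WT, and genes lower in MHCII-high cells 1184 to 1813, with 1184 without 21-week-WT. Members lower numbered 1 to 2 against cDC2-like cells and 1 to 2 in MHCII-high cells, with 2 in both without 12-week-WT.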
